A study of Mus musculus with 2 samples.

Results

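Mks1 and the genes of its protein complex at the base of the primary cilium were followed through single-nucleus RNA-seq of 8 mouse sarcomas. The set held 10 genes, taken by symbol from the 19059 features of the count matrices, namely Mks1, B9d1, B9d2, Tmem67, Tmem216, Tmem231, Tctn1, Tctn2, Tctn3 and Cc2d2a. Mks1 was selected on a measured value, as the gene that had shown the smallest p-value of all genes between the 2 groups of tumors in an earlier fit. Its group values are therefore given as a description with no test. The 9 other genes were taken for their membership of the complex and not for a value, and could be tested. They were chosen with earlier results of these data known, and further MKS proteins stand in another list.

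The tumors arose in the dFLEx CDS mouse, an allele that expresses the CIC::DUX4 fusion from the CAG promoter only after both Cre and FLPE have acted, which were delivered as plasmids electroporated into the hind limb. Each group held 4 tumors. The untreated tumors carry the genotype label dFLEx CDS +/-, and the Minnelide tumors (0.42 mg/kg, 21 days) have no genotype label. According to the paper, the Minnelide tumors profiled included some that responded well to the drug and some that responded poorly. The labels do not say which tumor had which response, so the part of response in the spread among Minnelide tumors was not tested. The labels give no ages. Minnelide releases triptolide in the body, a diterpenoid that acts on the XPB helicase of the general transcription factor TFIIH. Both groups are labelled as dFLEx CDS tumors, and no vehicle is named for the untreated group.

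The primary cilium is a single sensory projection of the cell membrane, built on a basal body when a cell leaves the cycle and taken down before division. The transition zone lies just above the basal body and controls which membrane proteins enter, among them receptors of the Hedgehog pathway. The MKS complex is one of its modules, and inherited loss of its members causes Meckel and Joubert syndromes. Within it, Mks1, B9d1 and B9d2 share a B9 domain, Tmem67, Tmem216 and Tmem231 cross the membrane, the tectonics Tctn1, Tctn2 and Tctn3 are secreted or membrane-bound partners, and Cc2d2a is a coiled-coil scaffold with a C2 domain.

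After filters, 59356 of 72338 nuclei remained, 4449 to 10258 per tumor, with median depths of 880 UMIs (untreated 4) to 4039 UMIs (Minnelide 1). Each of the 4 matrices deposited for a group was taken as 1 tumor, and tumor numbers are names only and pair nothing. Nuclei were clustered and called tumor-like, fibroblast-like and so on from fixed markers. The tumor-like nuclei held UMIs of all 8 tumor markers (such as Etv1, Etv4 and Etv5) in every tumor, at a summed 12852 to 22178 CPM. The same markers summed to 1725 to 16789 CPM in the other named classes, highest in macrophage-like nuclei of Minnelide tumors, so the ranges overlap. Markers of other cells were also counted in the tumor-like nuclei. The 9 endothelial ones summed to 2827 CPM in untreated 1 and to 417 to 818 CPM in the 7 other tumors. Their part in the results was not tested. Of the nuclei of Minnelide 2, 50.6% were myocyte-like. In untreated 1 this share was 36.6%, and 14.2% at a coarser clustering (Leiden resolution 0.5). Tumors with the same number in the 2 groups shared 49 to 132 cell barcodes. All other pairs, among them those within a group, shared 0. The labels name no capture or run, so whether the 2 groups were captured apart is not known. If they were, capture and treatment cannot be told apart in these data. The part of capture and of the barcode sharing in the results was not tested.

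The start of Mks1 is shown because the gene defines the set, that of Tmem231 because it was the other gene whose groups did not overlap, and that of Tctn1 for contrast, since its group means were nearly equal. RFX factors drive many ciliary genes through the X-box, a pair of half-sites in opposite orientation. RefSeq promoters (GRCm38.p6, 250 bases before to 50 after the start) were found for 9 of the 10 genes, and Tmem67 had no entry. They were searched on both strands for the half-site GTTGCC, and for the looser pair GTTNCC and GGNAAC set 0 to 3 bases apart. Capitals mark the matches, and each sequence runs 5′ to 3′ on the strand of its gene.
Mks1, chr11:87852965-87853264, plus strand: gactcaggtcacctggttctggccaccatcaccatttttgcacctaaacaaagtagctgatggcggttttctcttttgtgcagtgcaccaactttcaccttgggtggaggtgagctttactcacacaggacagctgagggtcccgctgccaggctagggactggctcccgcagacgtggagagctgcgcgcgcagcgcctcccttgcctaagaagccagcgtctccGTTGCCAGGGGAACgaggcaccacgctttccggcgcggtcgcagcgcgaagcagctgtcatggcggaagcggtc
Tmem231, chr8:111933764-111934063, minus strand: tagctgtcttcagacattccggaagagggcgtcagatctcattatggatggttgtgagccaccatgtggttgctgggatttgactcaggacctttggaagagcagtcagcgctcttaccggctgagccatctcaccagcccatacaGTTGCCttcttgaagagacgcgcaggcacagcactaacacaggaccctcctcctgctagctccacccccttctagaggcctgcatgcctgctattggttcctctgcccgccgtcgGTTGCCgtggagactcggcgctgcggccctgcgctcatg
Tctn1, chr5:122264411-122264710, minus strand: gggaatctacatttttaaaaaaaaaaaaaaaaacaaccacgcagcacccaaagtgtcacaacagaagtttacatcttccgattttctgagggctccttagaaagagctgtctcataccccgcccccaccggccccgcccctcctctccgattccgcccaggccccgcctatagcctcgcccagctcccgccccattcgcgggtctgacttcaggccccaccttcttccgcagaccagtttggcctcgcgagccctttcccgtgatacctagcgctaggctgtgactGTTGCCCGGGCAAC

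The half-site was present in the promoters of 7 of these 9 genes, all but Tmem216 and Cc2d2a, and in 12.5% of all 32851 promoters of the same length. The half-site overlaps the pair where both match. The pair was found in Mks1, Tctn1 and Tctn3, and in 0.804% of all promoters. In Mks1 it began 24 bases before the start. Genes were counted by a match in any of their promoters, whereas the percentages are over promoters. The match is a description of the letters and was not tested as a binding site.

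Mks1 (ENSMUSG00000034121) lies on GRCm39 chromosome 11, 87744026 to 87754634, plus strand. It was higher in each of the 4 Minnelide tumors than in any of the 4 untreated ones, as were 0.659% of all genes. In all retained nuclei it stood at 9.98, 9.10, 9.497 and 8.14 CPM (UMIs of the gene over all UMIs of the same nuclei, scaled to a total of 1e6) in untreated 1 to 4. In Minnelide 1 to 4 it stood at 15.9, 14.5, 15.6 and 14.2 CPM. The means were 9.18 ± 0.782 CPM (SD, n = 4) against 15.1 ± 0.831 CPM (SD, n = 4), a ratio of 1.64. These levels rest on 129 to 987 Mks1 UMIs per tumor. The retained totals were 15852822 to 50194948 UMIs (untreated) and 17347814 to 61894532 UMIs (Minnelide), and the part of depth was not tested.

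In the tumor-like nuclei, which hold part of the same Mks1 UMIs, the groups did not overlap either, as in 0.93% of all genes. Mks1 was selected on this contrast, so this and the later separations of its values give no separate support. Mks1 measured 7.76, 9.85, 9.96 and 9.65 CPM in untreated 1 to 4, and 16.8, 14.1, 16.4 and 14.3 CPM in Minnelide 1 to 4. The lowest value was that of untreated 1. The means were 9.30 ± 1.04 and 15.4 ± 1.38 CPM (SD, n = 4 each), a ratio of 1.66. With scaling by trimmed means, the fitted log2 fold change of Mks1 was 0.86 in all retained nuclei and 0.85 in tumor-like nuclei. Scaling by library totals alone put it at 0.71 and 0.73 and placed the median of all genes at -0.15 and -0.14, and the values of Mks1 are read against that median.

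**Figure D1:**
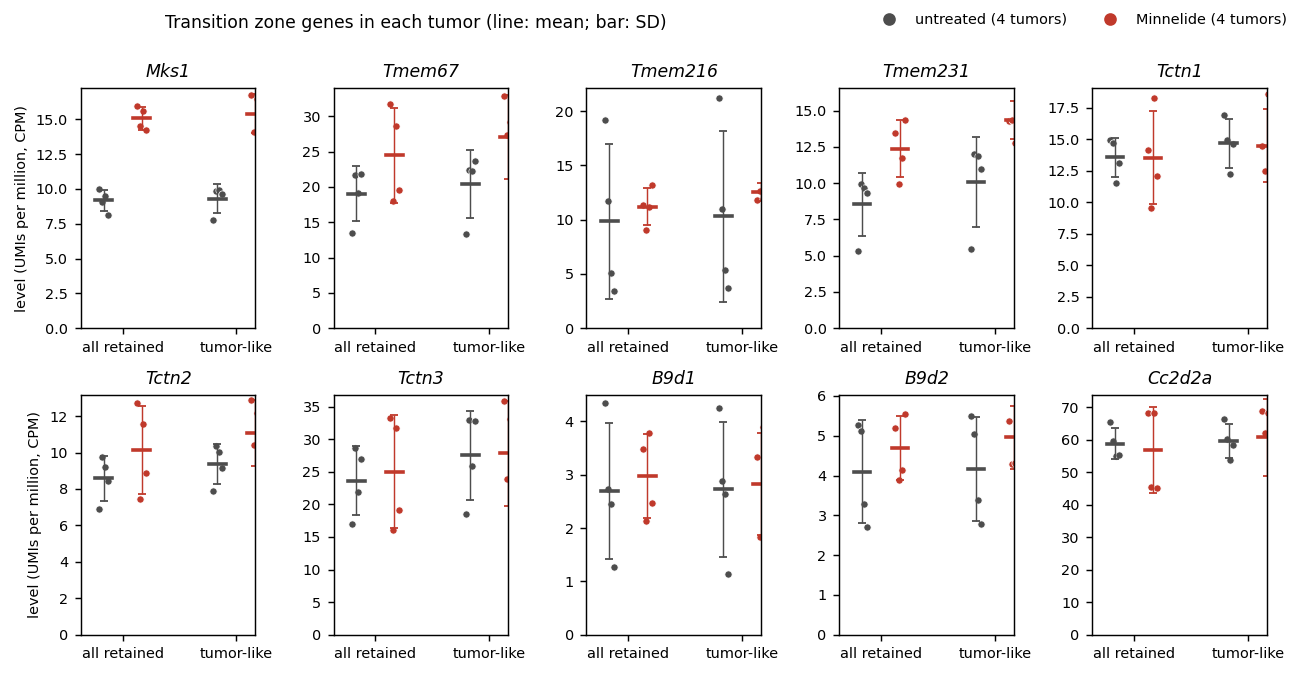
Level (CPM) of the 10 transition zone genes in each tumor, in all retained and in tumor-like nuclei, with untreated tumors in grey and Minnelide tumors in red. Points are tumors, lines are means and bars are SD (n = 4). Mks1 and Tmem231 are the 2 panels whose groups do not overlap in either set of nuclei.

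The question the set was made for was whether the higher level of Mks1 was shared by its complex. None of the 9 other genes passed the test at an adjusted p under 0.05 in either set of nuclei (edgeR quasi-likelihood test, Benjamini-Hochberg over all genes), and neither did any gene at all (0% of 13804 genes in all retained nuclei, 0% of 13016 in tumor-like nuclei). DESeq2 called none of the 9 either, while it called 183 and 75 genes in the 2 sets. At an unadjusted p under 0.05, 1 of the 9 was higher in all retained nuclei (Tmem231), against 2.43% of all genes, and 0 of 9 in tumor-like nuclei, against 2.13%. All 9 had a fitted log2 fold change above 0 in both sets, with a median of 0.35 and 0.36, where 50.6% and 49.5% of all genes did and the median of all genes was near 0 (0.0057 and -0.0038). With library totals alone, 33.4% and 33.0% of all genes were above 0, with medians of -0.15 and -0.14. The count above 0 among the 9 was then 7 and 8, with medians of 0.18 and 0.24. With 1 tumor left out it was 7 to 9 in all retained nuclei (7 without Minnelide 3) and 8 to 9 in tumor-like nuclei, and the median ran from 0.22 (without untreated 4, in both sets) to 0.45. In tumor-like nuclei thinned to 1000 UMIs the median was 0.17.

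**Figure D2:**
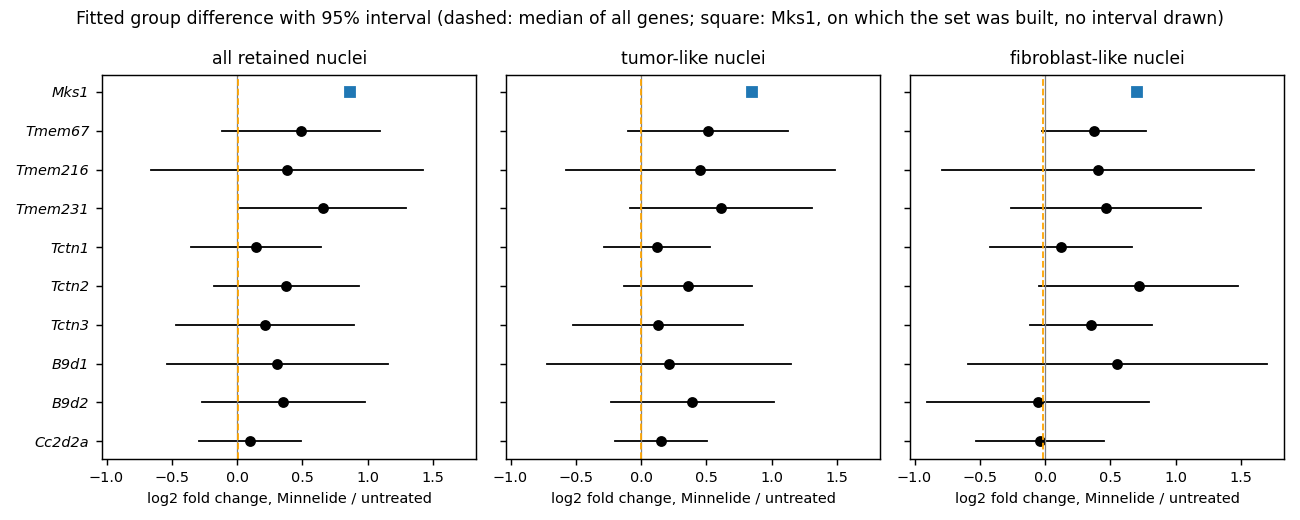
Fitted log2 fold change (Minnelide over untreated) of the 10 genes in all retained, tumor-like and fibroblast-like nuclei, with 95% intervals for the 9 tested genes. The square is Mks1, on which the set was built, and the dashed line is the median of all genes. The intervals of all 9 tested genes reach 0 or below except that of Tmem231 in all retained nuclei (0.02 to 1.29).

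Tmem231 (ENSMUSG00000031951, chromosome 8, 112638018 to 112660513, minus strand), a membrane protein that helps to hold the MKS complex at the transition zone, was the only other member whose groups did not overlap in both sets of nuclei. In all retained nuclei it measured 5.30, 9.91, 9.66 and 9.34 CPM in untreated 1 to 4, and 13.5, 9.93, 11.7 and 14.4 CPM in Minnelide 1 to 4. The Minnelide tumors were all above the untreated ones, as in 0.659% of all genes, but untreated 2 and Minnelide 2 lay within each other's exact 95% Poisson intervals, which cover counting error only. The log2 fold change was 0.66 ± 0.28 (SE, adjusted p = 0.495, edgeR). In tumor-like nuclei the values were 5.46, 12.01, 11.8 and 11.0 CPM against 14.3, 14.3, 12.8 and 16.0 CPM, again without overlap, as in 0.93% of all genes, with a log2 fold change of 0.61 ± 0.30 (SE, adjusted p = 0.551, edgeR). Untreated 1 was far below the other untreated tumors. Without it, the log2 fold change was 0.45 in all retained nuclei and 0.38 in tumor-like nuclei. In tumor-like nuclei without UMIs of 6 cycling genes the groups overlapped, at 5.19 to 13.5 CPM against 11.5 to 13.3 CPM.

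The other membrane-spanning genes overlapped between the groups. Tmem67 (ENSMUSG00000049488, chromosome 4, 12039112 to 12090020), the receptor-like protein meckelin, measured 13.5, 21.7, 19.2 and 21.8 CPM (untreated) and 31.8, 17.9, 28.6 and 19.6 CPM (Minnelide), over all retained nuclei. Minnelide 1 and 3 were high, while Minnelide 2 and 4 lay inside the untreated range. Its log2 fold change was 0.49 ± 0.26 (SE, adjusted p = 0.562, edgeR). Tmem216 (ENSMUSG00000024667, chromosome 19, 10511229 to 10533602) varied most among the untreated tumors, with 19.1, 11.7, 5.11 and 3.47 CPM, and stood at 9.08 to 13.2 CPM in the Minnelide tumors. Its difference was not resolved, with a 95% interval of the log2 fold change from -0.66 to 1.42.

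The other B9-domain genes, the nearest relatives of Mks1, were counted at low levels. B9d1 (ENSMUSG00000001039, chromosome 11, 61395741 to 61425998) ranged from 1.26 to 4.34 CPM (untreated) and from 2.13 to 3.78 CPM (Minnelide), on 20 to 218 UMIs per tumor. B9d2 (ENSMUSG00000063439, chromosome 7, 25380199 to 25386132) ranged from 2.71 to 5.28 and from 3.90 to 5.53 CPM. The 95% intervals of their log2 fold changes ran from -0.54 to 1.16 and from -0.27 to 0.98 in all retained nuclei.

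Among the tectonics, Tctn1 (ENSMUSG00000038593, chromosome 5, 122375911 to 122402523) had group means of 13.5 ± 1.57 and 13.5 ± 3.69 CPM (SD, n = 4 each). Its fitted log2 fold change was 0.15, with a 95% interval from -0.35 to 0.64. Tctn2 (ENSMUSG00000029386, chromosome 5, 124736812 to 124765806) measured 8.58 ± 1.23 and 10.1 ± 2.399 CPM, with a log2 fold change of 0.38 ± 0.24 (SE, adjusted p = 0.608, edgeR). Tctn3 (ENSMUSG00000025008, chromosome 19, 40584052 to 40600702) measured 23.6 ± 5.27 and 25.03 ± 8.67 CPM, with Minnelide 1 and 3 at 33.2 and 31.7 CPM and Minnelide 2 and 4 at 16.1 and 19.1 CPM. Cc2d2a (ENSMUSG00000039765, chromosome 5, 43819682 to 43898319) measured 65.4, 59.6, 55.2 and 55.3 CPM (untreated) and 68.4, 45.5, 68.3 and 45.1 CPM (Minnelide). The Minnelide tumors fell on both sides of the untreated ones, and the log2 fold change was 0.10, with a 95% interval from -0.29 to 0.49. Coordinates are those of GRCm39, and 5 of the genes overlap a counted gene on the opposite strand (Tmem67 and Rbm12b2, Tmem216 and Cpsf7, Tctn1 and Hvcn1, B9d1 and Epn2, B9d2 and Tmem91). Mks1 overlaps no gene.

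The share of Mks1 in the summed level of the 10 genes also separated the groups. The share was 5.26% to 6.46% in the untreated and 7.61% to 10.6% in the Minnelide tumors over all retained nuclei, and 4.64% to 6.32% against 7.68% to 9.28% in tumor-like nuclei. This share uses Mks1 itself and is a description. The summed level of the 9 other genes was 149 ± 11.5 CPM (untreated) and 161 ± 35.8 CPM (Minnelide) (SD, n = 4 each), which overlapped.

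As a further description of the same Mks1 values, tumor-like nuclei were split by the UMIs of 6 cycling genes (Mki67, Top2a, Cenpf, Tpx2, Cenpe and Aspm). The tumors of the groups did not overlap in Mks1 on either side of the split. Nuclei without such a UMI gave 8.86 ± 1.59 CPM (untreated) and 14.4 ± 2.21 CPM (Minnelide). Nuclei with at least 1 gave 9.47 ± 1.06 and 15.7 ± 1.10 CPM (SD, n = 4 in each group). The cycling genes themselves summed to 254 to 842 CPM (untreated) and 605 to 1045 CPM (Minnelide) in tumor-like nuclei, lowest in untreated 1. Having no cycling UMI also depends on depth, and the median was 772 UMIs in such nuclei of untreated 4 and 1580 to 3321 UMIs in the 7 other tumors. Among these nuclei the exact 95% Poisson intervals of untreated 3 (6.75 to 17.1 CPM) and Minnelide 2 (6.90 to 19.0 CPM) overlapped. The part of cycling in the difference was not tested.

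A Mks1 UMI was found in 1.22% to 6.77% of untreated and 3.69% to 9.60% of Minnelide tumor-like nuclei, shares that depend on the depth per nucleus. After nuclei with at least 1000 UMIs were thinned to 1000, the shares were 0.550%, 0.958%, 0.964% and 0.781% in untreated 1 to 4, and 1.64%, 1.26%, 1.43% and 1.77% in Minnelide 1 to 4. The groups did not overlap, though the exact 95% binomial intervals of untreated 3 (0.641% to 1.39%) and Minnelide 2 (0.760% to 1.96%) did. Thinning left out 5698 of 8258 tumor-like nuclei of untreated 4, and 0 to 439 in each of the 7 others. No class here is known to lack Mks1, so that a background share from free RNA could not be taken, and its part was not tested.

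**Figure D3:**
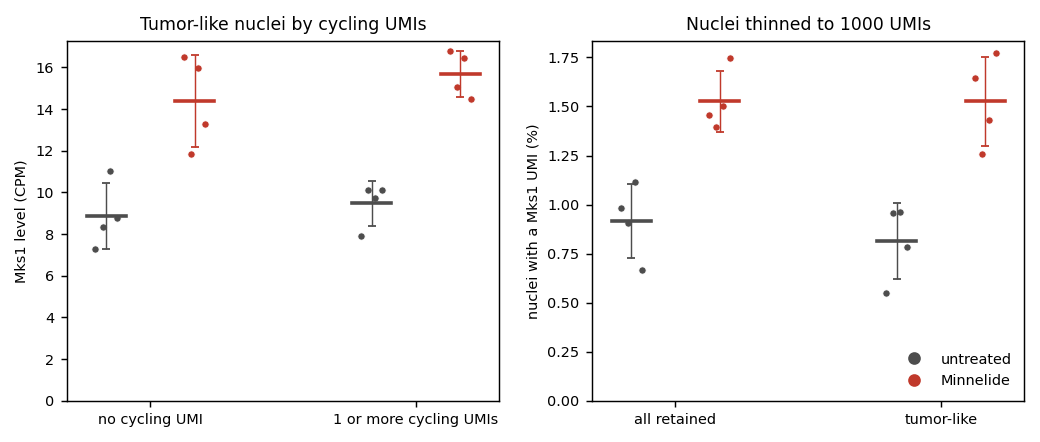
Left, Mks1 level (CPM) in tumor-like nuclei without and with a UMI of 6 cycling genes. Right, percentage of nuclei with a Mks1 UMI after thinning to 1000 UMIs, in all retained and tumor-like nuclei. Points are tumors, lines are means and bars are SD (n = 4), and the Minnelide points lie above the untreated points in each of the 4 pairs.

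Mks1 was found in all 7 named classes. Over all tumors it averaged 12.4 ± 3.45 CPM in tumor-like (n = 8), 12.03 ± 6.02 in myocyte-like (n = 8), 11.7 ± 5.24 in fibroblast-like (n = 8), 11.4 ± 5.42 in macrophage-like (n = 8), 9.87 ± 4.48 in pericyte-like (n = 7), 8.66 ± 5.05 in osteoclast-like (n = 8) and 7.84 ± 4.46 CPM in endothelial-like nuclei (n = 8, SD). Ordered by the mean of log2(CPM + 1), tumor-like nuclei came first and osteoclast-like last. The order pools both groups and was not stable. In untreated tumors alone, myocyte-like (12.6 CPM) and pericyte-like nuclei (11.0 CPM) were above tumor-like nuclei (9.30 CPM). The highest untreated myocyte-like value, 17.2 CPM, was that of untreated 1. Its 3249 myocyte-like nuclei became 1257 at the coarser clustering. Fibroblast-like nuclei came first without untreated 4 and myocyte-like nuclei without Minnelide 3, and endothelial-like nuclei came last without Minnelide 2, without Minnelide 3 or at the coarser clustering. Neighbours in the order were compared for all 10 genes by an exact two-sided sign-flip permutation test, and 0 of 60 pairs passed (adjusted p = 1 for every pair). The smallest p that 8 tumors allow is 0.0078, or 0.469 once adjusted for a single pair among 60, so the test could hardly show a difference between neighbours, and none passing does not show that they were alike. Pericyte-like nuclei of Minnelide 4 (14 nuclei, under the minimum of 20) were left out.

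Outside the tumor-like nuclei, Mks1 was separated between the groups in 1 class, and whether classes differed in this was not tested. Endothelial-like nuclei gave 4.95, 3.76, 3.604 and 4.97 CPM (untreated) and 12.8, 15.6, 7.26 and 9.86 CPM (Minnelide), without overlap. Of the genes that passed the filter on low counts in this class, 2.15% were higher without overlap. Mks1 rests there on 4 to 37 UMIs per tumor, too few to pass that filter, so it is not among those genes. Tumor markers were also raised in all clusters of macrophage-like and pericyte-like nuclei. They were raised in part of the endothelial-like, fibroblast-like and myocyte-like clusters. In endothelial-like nuclei their sum averaged 6259 CPM (untreated) and 11259 CPM (Minnelide), and in every other class the mean was also higher in the Minnelide tumors. The part of RNA from tumor cells in the Mks1 levels of the other classes, and in this separation, was not tested. Fibroblast-like nuclei gave 15.7, 9.05, 8.72 and 2.58 CPM against 13.4, 9.63, 18.9 and 15.9 CPM, and the groups overlapped. The ratio of means there was 1.61, which became 1.30 without untreated 4 and 2.13 without untreated 1. Macrophage-like nuclei gave 5.96 to 11.8 CPM against 11.5 to 22.8 CPM, with 1 to 19 UMIs per tumor. In myocyte-like, osteoclast-like and pericyte-like nuclei the ratios of means were 0.909, 1.13 and 0.758, and the groups overlapped. Those of myocyte-like and osteoclast-like nuclei crossed 1 when single tumors were left out (0.746 to 1.21, and 0.798 to 1.503).

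**Figure D4:**
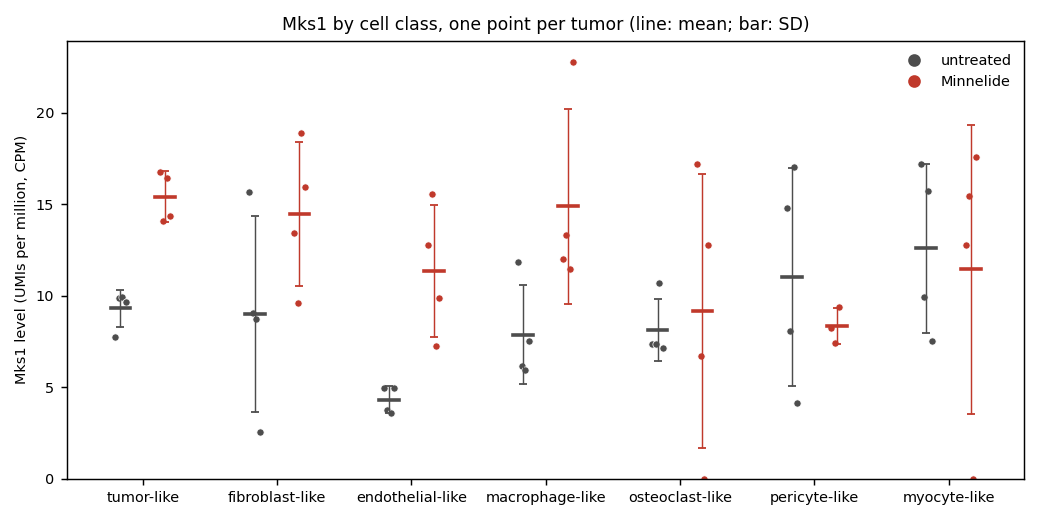
Mks1 level (CPM) by cell class, with untreated tumors in grey and Minnelide tumors in red. Points are tumors with at least 20 nuclei of the class, lines are means and bars are SD (n = 4, except n = 3 for pericyte-like Minnelide tumors). The groups are apart in tumor-like and endothelial-like nuclei and overlap in the other classes.

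Whether the group effect differed between tumor-like and fibroblast-like nuclei was tested in 1 model with a term for each tumor. None of the 9 tested genes passed, nor did any of 13544 genes (0%). The differences of the log2 fold changes ran from -0.53 (B9d1, 95% interval -1.85 to 0.79) to 0.35 (B9d2, -0.54 to 1.25). In the fits of fibroblast-like, endothelial-like, macrophage-like, osteoclast-like and myocyte-like nuclei, 9, 6, 3, 1 and 7 of the 9 genes had enough counts to be tested. None was called (edgeR, 0% of all genes in each class). In fibroblast-like nuclei, Tctn2 had the largest log2 fold change of the 9, 0.72 (95% interval -0.04 to 1.48).

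In myocyte-like nuclei the groups overlapped in Mks1 and did not overlap in Tmem67 and Tctn3. Tmem67 measured 6.12, 3.31, 8.17 and 9.05 CPM (untreated) and 18.1, 14.6, 17.6 and 17.6 CPM (Minnelide). Its log2 fold change was 1.18 ± 0.38 (SE, adjusted p = 0.354, edgeR). Tctn3 measured 9.39 to 12.2 CPM against 12.9 to 32.3 CPM, with a log2 fold change of 0.84 ± 0.37 (SE, adjusted p = 0.432, edgeR). These 2 of the 7 tested genes were higher at an unadjusted p under 0.05, against 5.98% of all genes, and without overlap, against 5.06%. The Minnelide values of Tmem67 rest on 44, 263, 6 and 3 UMIs, and 3429 of the myocyte-like nuclei came from Minnelide 2. Another 3249 came from untreated 1, where the coarser clustering called 1257 nuclei myocyte-like. Elsewhere, Tctn1 in macrophage-like nuclei (7.54 to 8.73 CPM against 10.7 to 11.5 CPM, on 1 to 15 UMIs) was higher without overlap. Tctn3 in osteoclast-like nuclei (24.6 to 42.9 CPM against 20.1 to 23.0 CPM) was lower without overlap. Neither gene passed the filter on low counts in that class. Of the genes that did, 1.37% in macrophage-like nuclei were higher and 4.56% in osteoclast-like nuclei were lower without overlap.

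Around Mks1, 7 genes within 100 kb were counted, and none passed the filter on low counts. Epx, which encodes eosinophil peroxidase and ends 191 bases from Mks1 on the opposite strand, had 2 UMIs in all retained nuclei of the 8 tumors. Mpo and Lpo, which encode related peroxidases, had 3 and 12 UMIs, Tspoap1 had 77, and 3 olfactory receptor genes (Or4d2b, Or4d2 and Or4d1) had 0, 0 and 3.

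The 5 genes whose pattern over the 8 tumors was most like that of Mks1 were Nthl1, a DNA glycosylase of base excision repair, Slf1, a factor of the SMC5/6 complex, Fubp1, a regulator of Myc transcription, Tkfc, a kinase of sugar metabolism, and Tmem107, another transition zone protein. Likeness was the root mean square difference of centred log2 CPM, taken over 8 tumors and 13804 genes. It was 0.14 for Nthl1, which measured 4.41 ± 0.271 and 6.44 ± 0.547 CPM in the untreated and Minnelide tumors (SD, n = 4 each), and 0.22 for Tmem107, which measured 2.904 ± 0.755 and 4.33 ± 0.861 CPM. In Tmem107 the groups overlapped, at 2.14 to 3.86 CPM (untreated) and 3.49 to 5.19 CPM (Minnelide). Tmem107 was not among the 10 genes of the set and stands in the list of other transition zone genes, which holds further MKS proteins. Of the 9 other genes of the set, Tctn2 was nearest with 0.35 and Tmem231 next with 0.36, at ranks 692 and 861 of 13803. Tmem216 was the farthest with 0.65, beyond the median of all genes of 0.59. Mks1 was selected on the group contrast, so likeness to it partly restates that contrast and gives no separate support.

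The rest of the cilium was described by 8 lists of structural genes. In all retained nuclei 68 of their 78 tested genes had a log2 fold change above 0, with a median of 0.22, and none was called. With library totals alone, 50 of 78 were above 0, with a median of 0.08. This stood 0.23 above the median of all genes in that scaling, where 33.4% of all genes were above 0. The counts with library totals given below are read against that share. At an unadjusted p under 0.05, 9 of the 78 were higher and 0 lower, beside 336 (2.43%) higher and 1039 lower of all 13804 genes. The count above 0 in the fits without 1 tumor each ran from 62 to 69.

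Nearest to the complex, the 14 other transition zone genes, of the NPHP and CEP290 modules and further MKS proteins, had a median of 0.24, with 12 above 0 (10 with library totals). Tmem107 had the smallest p, with a log2 fold change of 0.73 ± 0.26 (SE, adjusted p = 0.469, edgeR). The 6 genes of IFT-A, which carries cargo back from the ciliary tip, were all above 0, with a median of 0.44 (with library totals 5 of 6). Among them, Ttc21b measured 32.3 ± 7.36 and 46.4 ± 8.85 CPM (SD, n = 4 each), with a log2 fold change of 0.66 ± 0.23 (SE, adjusted p = 0.469, edgeR). Of 17 genes of IFT-B, which carries cargo outward, 16 were above 0 (12 with library totals), with a median of 0.25, and Cluap1 had the smallest p, with 0.32 ± 0.12 (SE, adjusted p = 0.473, edgeR).

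At the base of the cilium, the 11 genes of the basal body and distal appendages were all above 0 (8 with library totals), with a median of 0.33. Sclt1, which anchors the centriole to the membrane, had the smallest p of all these lists, at 151 ± 10.9 and 191 ± 13.2 CPM and a log2 fold change of 0.48 ± 0.14 (SE, adjusted p = 0.465, edgeR). The BBSome, which sorts membrane proteins in the cilium, had a median of 0.07, with 6 of 9 genes above 0 (2 with library totals) and Bbs5 the smallest p, at 0.41 ± 0.19. The ciliary motors and membrane proteins had a median of 0.15, with 10 of 13 above 0 (6 with library totals) and Kif3a the smallest p, at 0.36 ± 0.15. The inversin compartment had 3 of 4 above 0, led by Nek8 at 0.42 ± 0.25, and the planar polarity effectors of CPLANE 4 of 4, led by Fuz at 0.58 ± 0.25 (SE, log2 fold change).

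**Figure D5:**
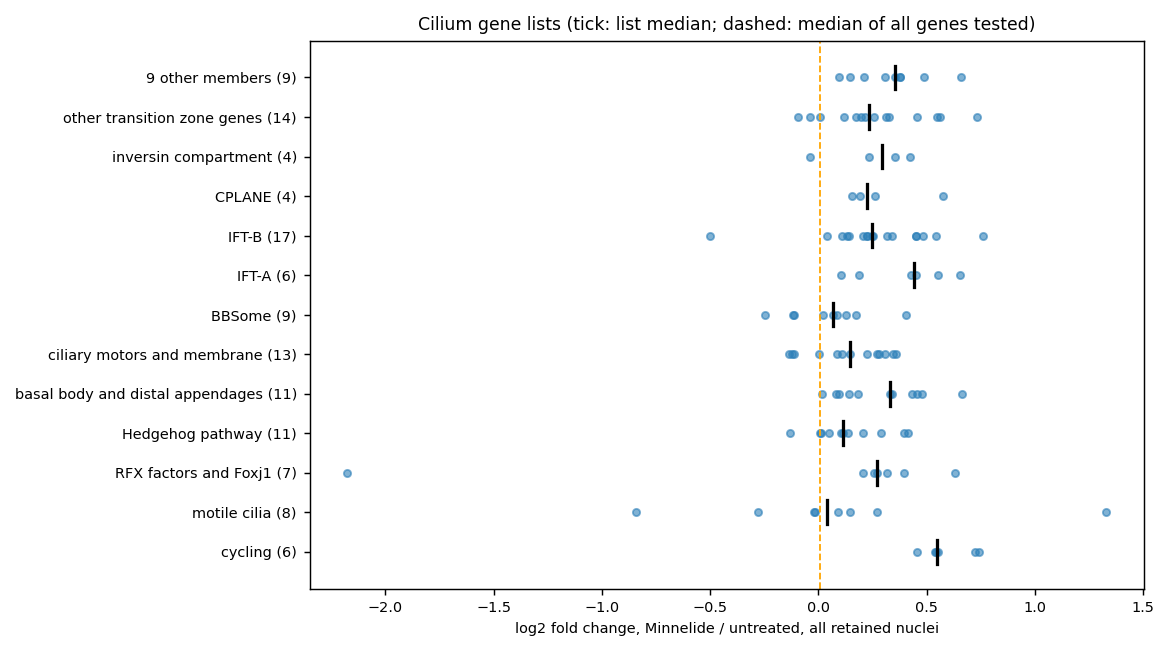
Fitted log2 fold change (Minnelide over untreated, all retained nuclei) of each tested gene of the cilium lists, with the number of genes in brackets. Ticks are list medians and the dashed line is the median of all genes tested. No gene shown passed an adjusted p under 0.05, and the list medians run from 0.04 (motile cilia) to 0.55 (cycling).

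The regulators and users of cilia gave no call. Of the RFX factors and Foxj1, the transcription factors of ciliary genes, 6 of 7 were above 0, and Rfx4, the one below, measured 18.7 ± 14.7 and 3.85 ± 5.76 CPM (SD, n = 4 each), with a log2 fold change of -2.18 ± 1.42 (SE, adjusted p = 0.61, edgeR). The Hedgehog pathway, which signals through the cilium, had a median of 0.11, with 10 of 11 genes above 0 (5 with library totals), and its transducer Smo had the smallest p, at 0.42 ± 0.25. Markers of multiciliated cells summed to 5.17 to 8.45 CPM (untreated) and 6.88 to 11.3 CPM (Minnelide) in all retained nuclei. Of 12 such genes, Mcidas had no UMI in any tumor, and 4 of the 8 tested were above 0 (2 with library totals). Foxj1, named for its role after the values were seen, averaged 0.338 CPM in untreated and 0.378 CPM in Minnelide tumors. Ccdc40, with the smallest p, measured 0.83 ± 0.301 and 1.89 ± 0.947 CPM (SD, n = 4 each). The 6 cycling genes were all above 0, also with library totals, with a median of 0.55, and Aspm, of the mitotic spindle, had the smallest p at 0.72 ± 0.39 (SE). Their part in the values of the cilium genes was not tested.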

How the data were processed

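Nuclei of 8 tumors, 4 in each of 2 groups, were profiled with a 10x Genomics Chromium 3' kit with on-chip multiplexing. The authors counted UMIs with intronic reads included, and the deposited counts are whole numbers without normalization, in 4 filtered matrices per group. The submitters' processing notes name bcl2fastq 2.20, Cell Ranger 7.0.1 and mm39, whereas the matrix headers name Cell Ranger 9.0.1. Each matrix held 19059 features, 18953 of them protein coding in GENCODE. How they were selected is not given in the sources used here.

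Nuclei with under 200 genes, those of high mitochondrial share for their gene number (mixture model, posterior of at least 0.75) and the highest Scrublet doublet scores (0.8% per 1000 nuclei) were removed, leaving 59356 nuclei. Deposited depth was 18487409 to 73211599 UMIs per tumor. Nuclei were clustered with scanpy 1.11.5 (2000 variable genes without the members and cilium lists, 30 components, Leiden resolution 1), and clusters were named from at least 3 raised markers. UMIs were summed per tumor and class where every tumor had at least 20 nuclei, and tested with edgeR 4.0.16 (TMM, filterByExpr, two-sided quasi-likelihood test, Benjamini-Hochberg adjustment over all genes). Standard errors were scaled to reproduce that p-value. DESeq2 1.42.0 was an alternative, with other scaling, filters, clustering, depth and each tumor left out. The fit was tested on simulated data. Nothing states that the tumors of a group were processed independently, so p-values measure the spread between these samples.

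The members and lists were chosen with earlier results of these data known. The text names the 10 members, the counted genes within 100 kb of Mks1, the 5 genes most like it, and the gene with the smallest p of each cilium list, since none was called. Coordinates are those of GENCODE vM39 on GRCm39, and Tctn2 was matched by symbol.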

Additional observations from a re-analysis of the deposited data

Results flagged for a closer look

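In 6 of 51 groups of 4 tumors, 1 tumor lay far from the others (gap over range above Dixon's 95% critical value), and chance flags about 1 in 20 groups. Untreated 1 accounted for 4 of them. Its Tmem231 level was 5.30 CPM in all retained nuclei, where the other untreated tumors had 9.34 to 9.91 CPM, and 5.46 CPM in tumor-like nuclei, where they had 11.0 to 12.01 CPM. Its Mks1 level in tumor-like nuclei was 7.76 CPM beside 9.65 to 9.96 CPM, and without this tumor the log2 fold change of Mks1 was 0.73. Its Tmem67 level there was 13.3 CPM beside 22.3 to 23.6 CPM. This tumor also had the lowest cycling sum (254 CPM) and the highest endothelial sum (2827 CPM) in tumor-like nuclei, and their part was not tested. Mks1 in macrophage-like nuclei of Minnelide 4 was 22.8 CPM, on 4 UMIs, beside 11.5 to 13.3 CPM in the other Minnelide tumors. Mks1 in osteoclast-like nuclei of untreated 3 was 10.7 CPM, on 10 UMIs, beside 7.15 to 7.38 CPM.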

How the results depend on the processing

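No paired analysis was possible because the labels give the tumors no replicate numbers. None of the 9 other members was called in any alternative run. DESeq2 called 183 genes in all retained, 75 in tumor-like, 24 in fibroblast-like, 20 in endothelial-like, 1 in macrophage-like, 31 in osteoclast-like and 74 in myocyte-like nuclei and 9 for the difference between classes, where edgeR called 0. Without a filter on low counts 1 gene was called in osteoclast-like nuclei, and leaving out 1 tumor gave 0 to 1 in all retained nuclei (1 without Minnelide 2). In all retained nuclei the log2 fold change of Mks1 was 0.71 with library totals and 0.58 with equal weight for each class. The sign changed for Tctn1 with library totals (-0.0042 in all retained, -0.016 in tumor-like nuclei), Cc2d2a with library totals (-0.051), B9d2 with equal class weight (-0.16) and Tctn3 in tumor-like nuclei without cycling UMIs (-0.060). With 1 tumor left out, Tctn1 ran from -0.034 to 0.28 in all retained and from -0.021 to 0.19 in tumor-like nuclei, Cc2d2a from -0.0016 to 0.19 in all retained nuclei, and in tumor-like nuclei Tctn3 from -0.047 to 0.28 and B9d1 from -0.025 to 0.45. The log2 ratio of mean Mks1 levels ran from -0.33 to 0.59 in osteoclast-like and from -0.42 to 0.28 in myocyte-like nuclei. The cause was not tested. A stricter naming of clusters left too few tumor-like nuclei for a value. Low counts limited the smaller classes, where Mks1 had 0 to 37 UMIs per tumor in endothelial-like, macrophage-like and osteoclast-like nuclei.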
